A study of Mus musculus with 18 samples.

Results

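The 10 immediate early and AP-1 genes Fos, Fosb, Fosl1, Fosl2, Jun, Junb, Jund, Atf3, Egr1 and Ier2 were selected by symbol from 21859 genes, and 9 promoter upstream transcripts (PROMPTs) with the same symbols were selected from 32253. Jun had no PROMPT entry. The measurements came from TT-seq, in which cells receive 4-thiouridine (4sU) briefly, here for 5 min, and the RNA that took it up is purified and sequenced, so that the reads follow transcription more closely than stored mRNA. The cells were mouse E14 embryonic stem (ES) cells, a line derived from the early embryo, and 18 libraries were made in 6 groups of 3. Untagged cells, SPT16_AID_V5_Clone1 and SPT16_AID_V5_Clone2 each received ethanol (EtOH) or the auxin 3-IAA for 24 h. All of these cells carried osTIR1, the plant receptor that sends AID-tagged proteins to the proteasome in the presence of auxin. In both clones the endogenous Supt16 gene, which encodes the SPT16 subunit of the histone chaperone FACT, carried a mini-AID and a V5 tag at its 3′ end, and each tagged line was a single clone. All groups grew without feeder cells in medium with serum, LIF, the GSK inhibitor CHIR99021 and the MEK inhibitor PD0325091, and received fresh medium with the treatment and again with the 4sU.

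Immediate early genes are switched on within minutes of a stimulus such as serum, without new protein synthesis, through transcription factors that are already present, among them SRF with its TCF partners and CREB, which act downstream of MAP kinases. FOS and JUN proteins, with ATF3 and other basic leucine zipper (bZIP) proteins, pair as the AP-1 transcription factor and bind the TPA response element (TRE) and the cAMP response element (CRE). JUN proteins can pair with each other, while FOS proteins need a JUN partner. EGR1 is a zinc finger transcription factor, and Ier2 encodes a nuclear protein of the same early response. PROMPTs are short-lived RNAs transcribed from the same promoters in the direction opposite to the gene.

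Levels are given as the baseMean, the authors' mean over all libraries of read counts divided by a size factor for each library. This mean pools EtOH-treated and auxin-treated cells, so the levels below describe the whole set of libraries. Values for single libraries and for single conditions were not analysed here, so no value has a replicate error, no condition was compared with another, and the order of genes with close values is not settled. In bulk RNA, fewer transcribing cells and less RNA per cell cannot be told apart. A single read added between 0.0216 and 0.115 to a baseMean, depending on its library, so the libraries differed 5.34-fold in depth. All 10 ES cell markers had a baseMean of at least 100, from 247.9 for Utf1 to 72140 for Tfcp2l1, a level reached by 62.2% of all genes with reads. Of the 6 fibroblast markers 1, Pdgfra at 212.4, passed a baseMean of 100, Col1a1 was at 25.3 and Col3a1 at 2.03. Of the 4 primitive endoderm markers 1, Gata4 at 455.3, passed it, and none of the 3 blood markers reached 10. Of the 4 neural markers 1, Map2 at 616.1, passed it, while Tubb3 and Neurod1 were listed at 0, and both lie inside another protein-coding gene on the same strand, which bears on their counts as described below for all such genes. A baseMean also depends on gene length. Per kb of gene span, Map2 was at 2.30, Pdgfra at 4.62 and Gata4 at 6.26. Utf1 was at 187.2, and the median of all genes with reads was 21.7.

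The promoters of 7 members were in the RefSeq promoter table for GRCm38.p6, which gives 250 bases before and 50 after each start. Fosl1, Egr1 and Ier2 were not matched. The stretches below show 5 promoters that hold a TATA box or a sequence like the CRE, the elements through which several immediate early genes are known to be controlled. Each runs 5′ to 3′ on the strand of the gene, and capitals mark TATAAA, TGACNTCA and TGACG on either strand. The stretches are chr12:85473790-85473889 (plus strand) for Fos, chr7:19310046-19310145 (minus) for Fosb, chr4:95052223-95052322 (minus) for Jun, chr8:84978743-84978842 (minus) for Junb and chr1:191183334-191183433 (minus) for Atf3.
Fos: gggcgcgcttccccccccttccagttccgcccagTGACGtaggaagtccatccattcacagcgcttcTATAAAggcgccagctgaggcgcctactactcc
Fosb: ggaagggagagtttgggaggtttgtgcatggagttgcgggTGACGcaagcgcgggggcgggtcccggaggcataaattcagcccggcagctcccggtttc
Jun: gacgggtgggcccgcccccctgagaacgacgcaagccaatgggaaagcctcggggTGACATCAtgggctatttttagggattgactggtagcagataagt
Junb: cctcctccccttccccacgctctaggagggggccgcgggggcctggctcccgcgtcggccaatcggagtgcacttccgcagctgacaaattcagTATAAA
Atf3: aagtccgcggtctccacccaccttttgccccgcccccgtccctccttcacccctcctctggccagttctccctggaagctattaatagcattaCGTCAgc

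Counted from the RefSeq start as base 0, the TATAAA of Fos lay at -33 to -28. That of Junb lay at 0 to 5, which is -30 to -25 from the start that Gencode vM21 gives. TATAAA was found in 2 of the 7 member promoters and in 13.6% of all 32851 promoters of the same length. The CRE core TGACG, the first bases of the CRE, was found in 4 of the 7 (Fos, Fosb, Junb and Atf3) and in 20.8% of all promoters. In Fos it occurred at -66 to -62 and once more at -129 to -125, in Fosb at -60 to -56 and in Atf3, on the other strand, at -7 to -3. TGACNTCA, which leaves a middle base of the CRE free and so covers the CRE itself, was found in 1 of the 7, Jun, as TGACATCA at -45 to -38, and in 8.83% of all promoters. These 2 patterns were chosen after the fixed motifs had been counted. The full CRE (TGACGTCA, in 1.79% of all promoters, each of which also holds TGACG), the TRE (TGANTCA, in 7.81%) and the CArG box bound by SRF (in 1.63%) were in none of the 7. The windows end 250 bases before the start, and a missing match says only that these letters are not in them. The GC box GGGCGG was in 5 of the 7, namely Atf3, Jun, Fosl2, Fosb and Fos, against 35.7% of all promoters, and the CCAAT box (CCAAT) in 3 of the 7, namely Atf3, Jun and Junb, against 37.4%. A match describes the sequence and was not tested for binding here.

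All 10 members had reads. By baseMean as deposited they spanned 192-fold, from 24.0 for Fosb to 4624 for Atf3, and their median percentile among the 20157 genes with reads was 49.8. Of the 10 members, 8 reached 100, as did 62.2% of the genes with reads, and 2 (Atf3 and Ier2) reached 1000, as did 40.5% of the genes. Levels depend on gene length, with a Spearman's rho of 0.36 between baseMean and span and of 0.44 between baseMean and exon length over 17664 genes with a baseMean of 1 or more, so levels of different genes were compared per kb. The table itself shows which length was counted. Of 381 protein-coding genes that lie wholly inside another protein-coding gene on the same strand, 380 had a baseMean under 1. This included 180 of the 181 whose exons touch no exon of the surrounding gene, against 17.3% of 20413 genes without such an overlap. Reads were thus assigned over whole genes, introns included, and not where 2 genes of one strand overlap, so the gene span from first to last annotated base was used as the length. None of the 10 members overlapped another protein-coding gene on its own strand. Per kb of span the members ran from 3.27 to 1538, a 470-fold range, with a median of 95.6 against 21.7 for all genes with reads, and 7 of the 10 lay above the median gene. Per kb of merged exons the medians were 178.6 and 120.5, and 6 of the 10 lay above the median gene. By baseMean 5 did.

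**Figure D1:**
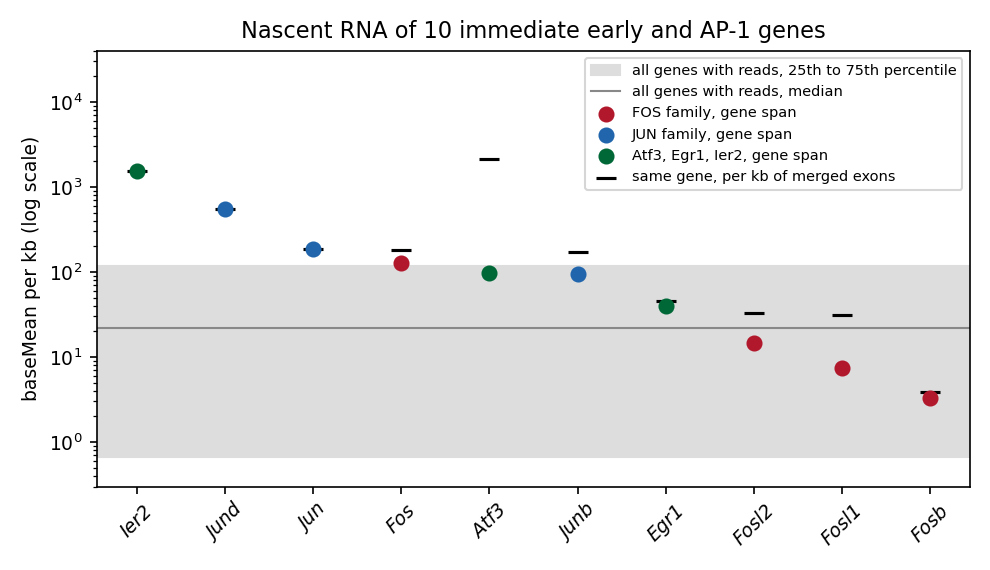
Level of the 10 members in nascent RNA, as the authors' baseMean over all libraries per kb of gene span (points, coloured by family) and per kb of merged exons (black dashes), on a log axis, with the median (21.7) and the 25th to 75th percentiles (0.669 to 117) of all genes with reads per kb of span in grey. Ier2, Jund, Jun and Fos lie above the grey band, Fosl2, Fosl1 and Fosb below the median, and the length used matters most for Atf3, at 96.9 per kb of span and 2147 per kb of exons.

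In the FOS family, Fos itself had the highest level. Fos (ENSMUSG00000021250, chromosome 12, 85473890 to 85477273, up to 4 exons) had a baseMean of 431.7 and 127.6 per kb of span, at percentile 76.9 among the genes with reads, the set behind all gene percentiles given here. Fosl2 (ENSMUSG00000029135, chromosome 5, 32135801 to 32157842), which encodes FRA2, had a baseMean of 319.8 over a gene of 22.0 kb and 14.5 per kb, at percentile 46.6. Fosl1 (ENSMUSG00000024912, chromosome 19, 5447547 to 5455946), which encodes FRA1, had a baseMean of 62.7 and 7.47 per kb, at percentile 41.5. The last 2767 bases of Fosl1 overlap Ccdc85b on the opposite strand, which had a baseMean of 407.4, and the reads were counted by strand. Fosb (ENSMUSG00000003545, chromosome 7, 19302696 to 19310051) was the lowest member, with a baseMean of 24.0, equal to 432.9 normalised reads summed over the 18 libraries, and 3.27 per kb, at percentile 35.5. Per kb of span, Fos was thus 39.0-fold above Fosb and made up 83.5% of the summed level of the 4 FOS genes.

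The JUN family was more even. Jund (ENSMUSG00000071076, chromosome 8, 70698949 to 70700616), a gene of a single exon whose product is known as the more constantly expressed JUN protein, had a baseMean of 907.2 and 543.9 per kb, at percentile 97.5. Ranked per kb of merged exons, Jund lay at percentile 72.0. Jun (ENSMUSG00000052684, chromosome 4, 95049034 to 95052222), also a single exon, had a baseMean of 598.2 and 187.6 per kb, at percentile 85.5. Junb (ENSMUSG00000052837, chromosome 8, 84974484 to 84978718) had a baseMean of 399.8 and 94.4 per kb, at percentile 70.3, or 173.7 per kb of merged exons. Its last 351 bases overlap Prdx2 on the opposite strand, whose baseMean was 1693. The range within the JUN family was 5.76-fold, and Jund made up 65.9% of the summed level per kb. Summed per kb of span, the 3 JUN genes reached 825.9 and the 4 FOS genes 152.8, a ratio of 5.40. Per kb of merged exons the ratio was 3.60, in the same direction. The JUN sum, the share of Jund and the ratio rest on the Gencode span of Jund. Over the longer span from the RefSeq start its level was 315.2, which would lower all of these.

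Of the other members, Ier2 (ENSMUSG00000053560, chromosome 8, 84661331 to 84662852), a single exon of 1522 bases, had the highest level per kb of all 10. Its baseMean was 2341 and its level per kb 1538, at percentile 99.4 and 71.0-fold above the median of the genes with reads. Ranked per kb of merged exons, Ier2 lay at percentile 90.3 and 12.8-fold above the median. Atf3 (ENSMUSG00000026628, chromosome 1, 191170296 to 191218039), a bZIP factor of the stress response, had the highest baseMean of the members, 4624. Its level per kb depended on the gene model. Over the 47.7 kb that Gencode vM21 gives, of which 4.51% is exonic, it was 96.9, at percentile 70.9. RefSeq places the start 34706 bases further downstream, and over those 13.0 kb the level was 354.7. With the first length Atf3 ranked next to Junb, and with the second only Ier2 and, over its Gencode span, Jund were higher. Egr1 (ENSMUSG00000038418, on chromosome 18, 5.16 kb) had a baseMean of 203.0 and 39.3 per kb, at percentile 56.3. For Jund the RefSeq start lies 1210 bases upstream of that of Gencode, and over the longer span its level per kb was 315.2, above that of Jun.

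PROMPTs were counted in windows within 1 kb upstream of a start on the opposite strand, so their levels compare directly. The highest were those of Ier2 (82.7), Junb (61.1) and Jund (48.8), at percentiles 98.3, 97.2 and 96.3 of the 23257 PROMPTs with reads, whose median was 0.815. Fosl1 followed with 6.48, at percentile 79.2. The PROMPTs of Fos (2.17), Fosb (2.17), Fosl2 (1.64) and Atf3 (1.42) lay between percentiles 58.4 and 64.4. The PROMPT of Egr1 was lowest, with 0.721, equal to 13.0 normalised reads over the 18 libraries, at percentile 48.0. In all, 8 of the 9 member PROMPTs reached a baseMean of 1, against 51.3% of the 14394 genes that reached 1 themselves and had a PROMPT entry. Fos and Fosb, which differed 39.0-fold in gene level, had PROMPTs that differed by less than the last digit given. Across the 9 members Spearman's rho between gene level per kb of span and PROMPT level was 0.47, and across the 14394 genes it was 0.63. Per kb of merged exons these values were 0.22 and 0.53. All are given as descriptions, since genes share the libraries and their depth.

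**Figure D2:**
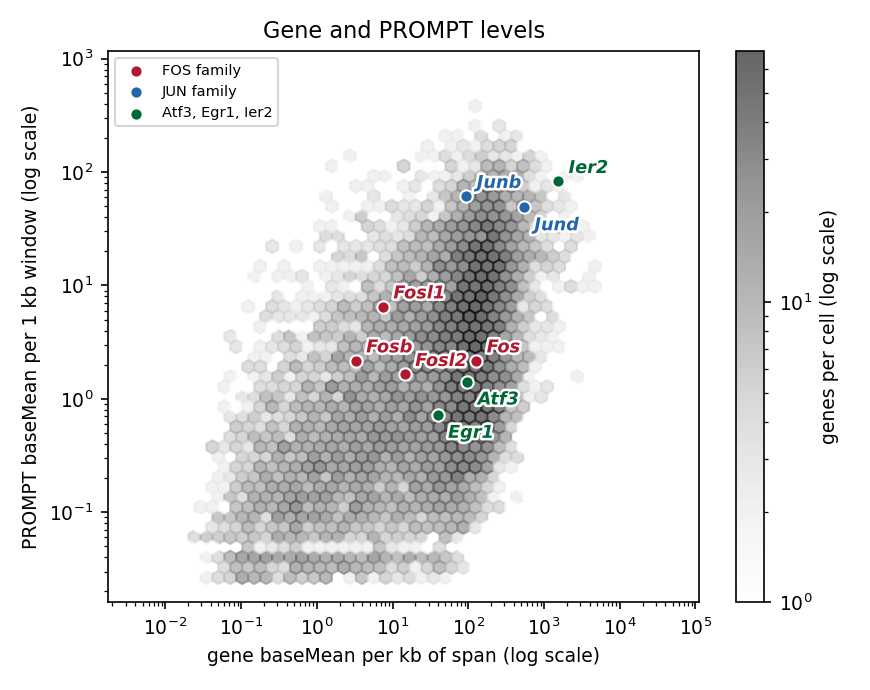
Gene level (baseMean per kb of span) against PROMPT level (baseMean in a 1 kb window), both on log axes and both the authors' means over all libraries, for genes that reached a baseMean of 1 and had PROMPT reads (grey cells, darker for more genes) and for the 9 members with a PROMPT entry (points). Ier2, Junb and Jund stand at PROMPT levels of 48.8 to 82.7, and Fos and Atf3 lie near Junb in gene level with PROMPTs of 2.17 and 1.42.

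Relative to the gene, the PROMPT level per kb had a median of 8.97% over the 9 members and of 4.68% over the 14394 genes, and per kb of merged exons these medians were 5.38% and 0.760%. It was highest for Fosl1 (86.8% of the gene level per kb of span), Fosb (66.3%) and Junb (64.7%), at percentiles 90.2, 88.1 and 88.0 of all such ratios. In Fosl1 and Fosb the gene level was low, whereas Junb combined a gene level of 94.4 with a PROMPT of 61.1. Fosl2 (11.3%), Jund (8.97%) and Ier2 (5.38%) were intermediate. Egr1 (1.83%), Fos (1.70%) and Atf3 (1.46%) were lowest, between percentiles 33.3 and 36.2, so that the sense RNA of Fos exceeded its PROMPT 58.8-fold per kb and that of Junb 1.55-fold. The place of Fos and Egr1 among the 14394 genes turned with the length, since per kb of exons their ratios lay at percentiles 57.1 and 61.9, while that of Atf3 lay at 21.3. For these 9 genes no other annotated gene reached into the 1000 bases upstream of the Gencode vM21 start. Inside Jund, the antisense gene Gm11175 (chromosome 8, 70699162 to 70700080) covers 919 bases on the opposite strand. Gm24748 covers 108 bases of Atf3 in the same way. Whether RNA from either adds to the PROMPT reads was not tested. For Jun, the antisense gene Junos (chromosome 4, 95051534 to 95167318) covers all 1000 bases and 689 bases of Jun itself on the opposite strand. The start that the authors used for each PROMPT may differ from that of vM21, above all for Atf3, Jund and Fosl2, whose RefSeq starts lie 34706, 1210 and 671 bases away.

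Related genes were examined for the same pathway. Of 30 other immediate early genes, 27 had a baseMean of at least 1 and 24 of at least 100, against 80.9% and 57.3% of all genes listed, and their median per kb of span was 83.9 against 13.3 for all genes listed. The highest, per kb of exons and of span alike, was Btg2, an antiproliferative gene, with a baseMean of 5471 and 1385 per kb of span. The lowest with reads was Npas4, a gene of the neuronal activity response, with a baseMean of 0.107. The other EGR genes were far below Egr1, with a baseMean of 3.34 for Egr2, 2.17 for Egr3 and 0.360 for Egr4, named after their values were seen. Csrnp1 was listed at 0, and is 1 of the 381 genes inside another, here Cx3cr1, on the same strand.

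Of the other bZIP genes, Ddit3 was left out because its symbol was not matched to exactly 1 gene. It lies inside another protein-coding gene on the same strand, with overlapping exons. All 20 others had a baseMean of at least 1, 14 of them of at least 100. Their median per kb of span was 57.3. Atf1, a CREB-related factor, was highest per kb of exons with a baseMean of 13282, and Maf lowest with a baseMean of 8.29. Per kb of span the highest was Atf4, a factor of the integrated stress response, with 2242 against 397.4 for Atf1. All 10 upstream SRF, TCF and CREB factors had a baseMean of at least 1, with a median of 70.8 per kb of span. Mrtfa, an actin-regulated partner of SRF, was highest per kb of exons with a baseMean of 13770, and Myocd, its muscle relative, lowest with 17.5. Per kb of span the highest was the TCF gene Elk4, with 198.0 against 77.2 for Mrtfa. Of 18 MAP kinase pathway genes found, 17 had a baseMean of at least 1, with a median of 116.4 per kb of span. Rps6ka4 was not matched to exactly 1 gene and was left out. The highest per kb of exons was Map2k1, which encodes the kinase MEK1, with a baseMean of 15491 and 228.3 per kb of span. Atf4, Atf7 and Elk4 were named after their values were seen. The lowest of the MAP kinase pathway genes was Map2k7 with a baseMean of 0.355, a gene that overlaps another protein-coding gene on its own strand over exons. Per kb of span the FOS family median was 11.0 and the JUN family median 187.6.

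**Figure D3:**
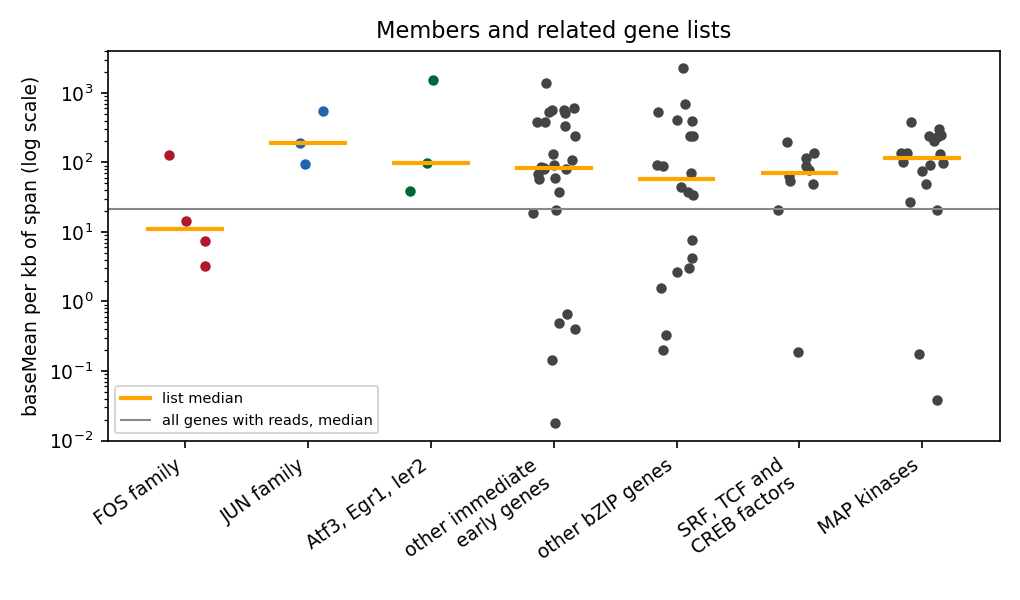
Level per kb of gene span (log axis, the authors' means over all libraries) for each gene of the FOS family, the JUN family, the other members and 4 related lists, with list medians (orange) and the median of all genes with reads (grey line, 21.7). Of the lists drawn, the FOS family has its median below the grey line, at 11.0, and the gene listed at 0, Csrnp1, is not drawn.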

How the data were processed

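TT-seq reads were, per the methods, trimmed with Trim Galore, aligned to mm10 with STAR keeping unique alignments, and counted by strand with featureCounts on Gencode vM25 (the labels' processing notes name HTSeq). The deposited baseMean, used here as a signal, averages read counts over the libraries, after the authors had scaled each library by its DESeq2 size factor. The other columns hold the authors' own comparison of depleted with control cells (log2 fold changes, standard errors and p-values) and were not used, and tables of distal regions name no member. Counts per library were not analysed here.

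Genes were placed on Gencode vM21 (GRCm38, the build of mm10), in which 21817 of 21859 gene IDs were found. Percentiles are the share of features with a lower value, with equal values, the feature itself among them, divided evenly between below and above. Each low baseMean value shared by many genes was taken as 1 read in 1 library. There were 18 such values, the number of libraries, in the gene table and in the PROMPT table. Merged exons had been planned as the main length, and gene span replaced them once the overlap of genes showed how reads were assigned. Motifs were searched on both strands of RefSeq promoters. The procedures were tested on simulated data.

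Members and lists were chosen with earlier results of these data known. All members were named, and of each list the highest and lowest gene with reads per kb of exons and those at 0. Alternatives were the reference set, the length, the level minimum and the promoter window. Python 3.11.15, numpy 2.4.6, pandas 2.3.3 and scipy 1.17.1 were used.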

Additional observations from a re-analysis of the deposited data

How the results depend on the processing

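The median percentile of the 10 members by baseMean, 49.8 among genes with reads, was 53.7 among all genes listed, 42.8 among genes that reached a baseMean of 1, 54.4 when ranked per kb of exons and 70.6 per kb of span, so whether it lies above or below 50 depends on the reference set as well as on the length. The median PROMPT percentile, 64.4, was 74.4 among all PROMPTs listed and 23.9 among those with a baseMean of at least 1. That set leaves out the PROMPT of Egr1, which entered this median at percentile 0. The median member level, 95.6 per kb of span, was 178.6 per kb of merged exons and 196.2 per kb of the longest transcript. The median of all genes with reads rose from 21.7 per kb of span to 120.5 per kb of merged exons, so the members stood less far above it. The ratio of the JUN to the FOS family was 5.40 and became 3.60 per kb of exons. The median PROMPT level, 8.97% of the gene level, was 5.38% per kb of exons and 3.53% without a length, while the median of the 14394 genes with a PROMPT entry went from 4.68% to 0.760% and 0.175%. Counts of related genes stayed within 1.5 times at minimums of 10 and 100, and 18 library values became 19 with a lower frequency limit. For single members, 20 of 45 alternative levels and ratios stayed within 1.5 times. Of their 58 alternative percentiles 1 stayed within the 95% binomial interval of the main value, and the gene percentiles moved by -11.1 to 39.2 points. The span from the RefSeq start and the patterns TGACG and TGACNTCA were added after the data were seen. No paired analysis was possible because the values pool all libraries, and leaving out a library could not be done for the same reason.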
